A study of Mus musculus with 4 samples.

Results

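The EGF receptor family and its ligands were examined in mouse colon on 4 one-color expression arrays. The members were the 10 genes *Egfr*, *Erbb2*, *Erbb3*, *Egf*, *Tgfa*, *Areg*, *Ereg*, *Hbegf*, *Btc* and *Epgn*, found by the gene name that the array files give to each probe. They were 10 of 22368 genes and were read by 12 of 39423 probes, of which *Egfr* had 3 and every other member 1. The arrays compared colon RNA of wild-type (*Pla2g3*+/+) male mice with that of males lacking *Pla2g3*, the gene of the secreted phospholipase A2 group III, on a B6.129 background at backcross generation 3. Mice were 42 weeks old and had received either saline as vehicle or azoxymethane (AOM), a carcinogen that gives rise to colon tumors. AOM was injected intraperitoneally at 10 mg/kg each week over 6 weeks, and tissue was taken 28 weeks after the final dose. RNA of 3 to 5 mice was mixed within each of the groups *Pla2g3*+/+ vehicle, *Pla2g3*-/- vehicle, *Pla2g3*+/+ AOM and *Pla2g3*-/- AOM, and each mixture was hybridized to 1 array. The labels call the AOM tissue colorectal cancer, whereas a legend in the study names the whole descending colon. The same legend gives 4 mice per pool for each genotype, where the series text gives 3 to 5.

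The ErbB receptors are tyrosine kinases of the cell surface that act in pairs. Their ligands are made as membrane-bound precursors and are cut free by sheddases such as ADAM17, after which EGFR signals through RAS, RAF and the kinases MEK and ERK, and through PI3 kinase. ERBB2 binds none of these ligands and ERBB3 is a poor kinase, so both work as partners of other receptors. In the gut the pathway is known for sustaining epithelial proliferation, repair after injury and tumor growth.

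Levels are background-subtracted spot intensities relative to the 75th percentile of all spots other than controls on the same array. That percentile was an intensity of 645.6 and 649.8 on the *Pla2g3*+/+ and *Pla2g3*-/- vehicle arrays and 1309.0 and 1168.7 on the corresponding AOM arrays. Between 64.8% and 69.4% of the 43020 spots other than controls were well above background by the scanner software. All 12 member probes were well above background on all 4 arrays, and no spot was saturated. *Pla2g3* itself had levels of 0.531, 0.656, 0.232 and 1.40 on the *Pla2g3*+/+ vehicle, *Pla2g3*-/- vehicle, *Pla2g3*+/+ AOM and *Pla2g3*-/- AOM arrays. In the pool labeled *Pla2g3*-/- it thus exceeded the wild-type by 1.23-fold under vehicle and by 6.01-fold under AOM. This is the reverse of what loss of the probed sequence would give. Whether its probe lies in the deleted part of the gene, and whether the labels are right, was not tested. Every direction between genotypes given here follows the labels, and "the pool labeled *Pla2g3*-/-" is written for that reason.

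With 1 array per group no difference has a replicate check or a p-value, and fewer cells of a type and less RNA per cell cannot be told apart in whole tissue. The error given beside a log2 difference is the SD that the error model of the scanner software predicts for a pair of signals, which covers measurement and not mice. It lay between 0.204 and 0.331 for the members. For the probes with replicate spots (*Egfr* variant 1, *Erbb2*, *Egf* and *Tgfa*) the error was averaged over the spots and not reduced for their number. Differences of more than 2-fold were counted.

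With vehicle, 1 of the 10 members (*Epgn*) was more than 2-fold higher and 0 were lower in the *Pla2g3*-/- pool by label, relative to *Pla2g3*+/+, where 3.24% of all 16391 genes with a value passed 2-fold in either direction (1.92% higher and 1.32% lower). After AOM, 2 receptors (*Erbb2* and *Erbb3*) were higher and 2 ligands (*Ereg* and *Btc*) were lower in the pool labeled *Pla2g3*-/-, against 28.0% of 17194 genes (15.1% higher and 12.9% lower). Between AOM and vehicle in *Pla2g3*+/+, 5 members (*Egfr*, *Tgfa*, *Ereg*, *Hbegf* and *Btc*) were higher and 1 (*Egf*) was lower, against 37.5% of 17277 genes (15.1% higher and 22.4% lower). In the pools labeled *Pla2g3*-/-, 4 (*Egfr*, *Erbb3*, *Areg* and *Hbegf*) were higher after AOM and 1 (*Epgn*) was lower, against 24.8% of 16514 genes (9.65% higher and 15.1% lower). The median log2 difference of the members was -0.16, 0.07, 0.85 and 0.76 in these 4 comparisons, beside -0.02, 0.03, -0.17 and -0.08 over all genes. The comparisons share arrays, so that the *Pla2g3*+/+ AOM array enters both the AOM effect in *Pla2g3*+/+ and the genotype difference after AOM.

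**Figure D1:**
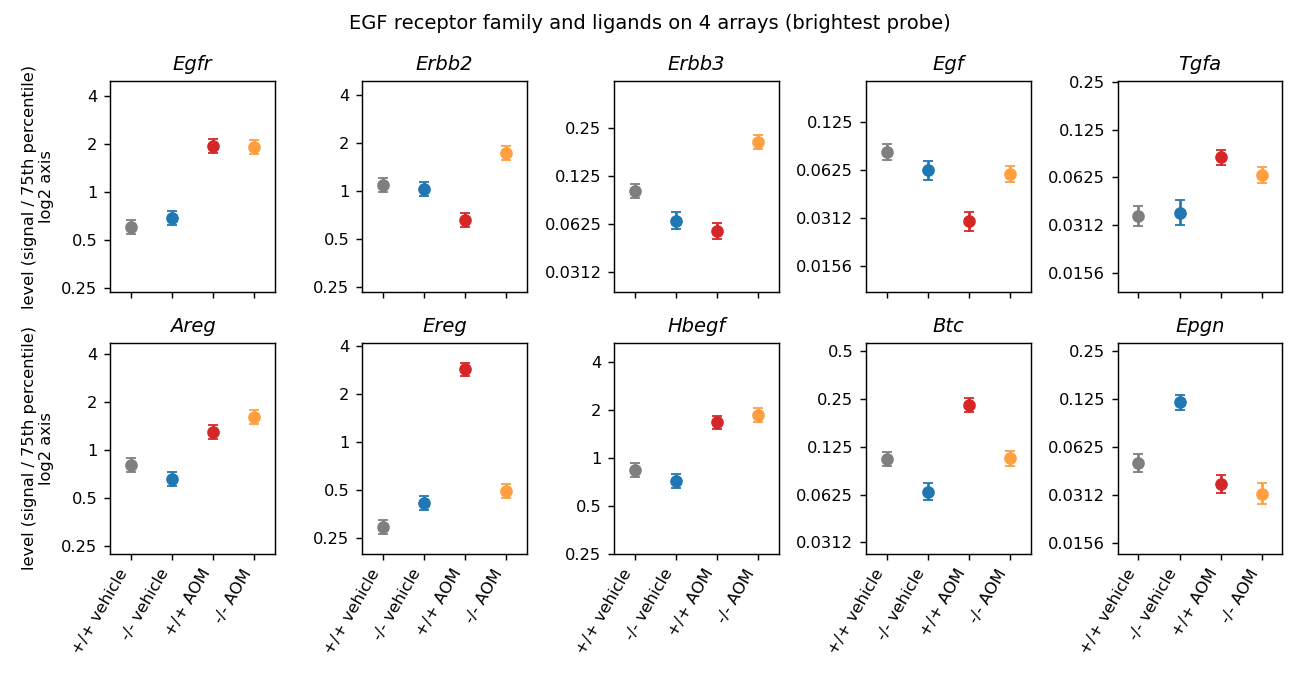
Level (intensity over the 75th percentile of the array, log2 axis) of each of the 10 members on the 4 arrays, 1 point per array, with bars of 1 SD from the error model of the scanner software. *Ereg* stands at 2.84 on the *Pla2g3*+/+ AOM array and between 0.292 and 0.494 on the other 3, whereas *Egfr* and *Hbegf* are higher on both AOM arrays than on both vehicle arrays.

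*Egfr*, which encodes the receptor of all 7 ligands, was higher on both AOM arrays. The probe with the brightest signal is assigned by the array files to transcript variant 1 (chromosome 11 of mm9, 16813815 to 16813874). Its level was 0.604 ± 0.018 (SD of 9 replicate spots) on the *Pla2g3*+/+ vehicle array and 0.687 ± 0.039 (10 spots) on the *Pla2g3*-/- vehicle array. It was 1.94 ± 0.059 on the *Pla2g3*+/+ AOM array and 1.92 ± 0.081 on the *Pla2g3*-/- AOM array (10 spots each). Both AOM arrays thus lay above both vehicle arrays, by 3.21-fold in *Pla2g3*+/+ (log2 1.68 ± 0.204) and by 2.79-fold in the pools labeled *Pla2g3*-/- (log2 1.48 ± 0.204). The genotype differences were 0.19 ± 0.205 with vehicle and -0.02 ± 0.204 after AOM on the log2 scale, each smaller than the SD of the error model. Replicate spots are repeats on 1 array, so their SD does not describe differences between mice.

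The array files assign the other 2 *Egfr* probes to transcript variant 2, a shorter form, but which variants each probe reads was not tested. Their sequences (5′ to 3′, mRNA sense, from the array files) are shown because these probes gave smaller differences than the variant 1 probe. The first lies at chr11:16783556-16783615 and the second at chr11:16787172-16787231 of mm9, both on the plus strand.
*Egfr* variant 2, first probe: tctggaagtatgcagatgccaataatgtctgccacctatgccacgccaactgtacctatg
*Egfr* variant 2, second probe: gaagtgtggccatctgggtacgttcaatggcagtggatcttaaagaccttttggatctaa
The first probe read levels of 0.232 and 0.206 on the *Pla2g3*+/+ and *Pla2g3*-/- vehicle arrays and 0.305 on each AOM array, a difference of 0.40 ± 0.206 after AOM in *Pla2g3*+/+ and 0.57 ± 0.209 in the pools labeled *Pla2g3*-/-. The second read 0.231, 0.188, 0.289 and 0.208 in the same order, with differences of 0.32 ± 0.206 and 0.14 ± 0.208. All 3 probes were higher with AOM in both genotypes, but only the variant 1 probe passed 2-fold. The mean over the 3 probes gave log2 differences of 0.80 and 0.73, which do not pass 2-fold.

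**Figure D2:**
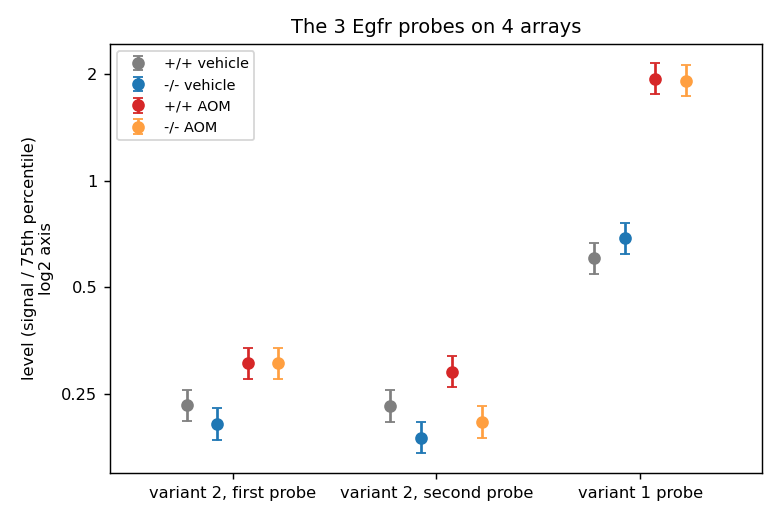
Level (intensity over the 75th percentile of the array, log2 axis) of the 3 *Egfr* probes on the 4 arrays, with bars of 1 SD from the error model of the scanner software. Probes are named by the variant that the array files assign, and which variants each one reads was not tested. The gap between AOM and vehicle arrays is 3.21-fold and 2.79-fold by the variant 1 probe and at most 1.48-fold by either variant 2 probe; levels of different probes cannot be set against each other.

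*Erbb2* and *Erbb3*, the partner receptors, did not share the pattern of *Egfr*. *Erbb2* (chromosome 11 of mm9, 98298103 to 98298162) had levels of 1.09 ± 0.042 on the *Pla2g3*+/+ vehicle array (SD of 9 spots), 1.02 ± 0.032 on the *Pla2g3*-/- vehicle array (10 spots), 0.658 ± 0.021 on the *Pla2g3*+/+ AOM array (10 spots) and 1.72 ± 0.071 on the *Pla2g3*-/- AOM array (9 spots). The *Pla2g3*+/+ AOM array was the lowest and the *Pla2g3*-/- AOM array the highest, and the 2 vehicle arrays differed by -0.09 ± 0.204 on the log2 scale. After AOM, *Erbb2* was 2.62-fold higher in the pool labeled *Pla2g3*-/- (log2 1.39 ± 0.204), and this value stayed between 1.22 and 1.46 under every alternative to the scaling and background. Relative to vehicle it differed by -0.73 ± 0.204 in *Pla2g3*+/+ and 0.75 ± 0.204 in the pools labeled *Pla2g3*-/-, neither of which passed 2-fold. The first of these had the opposite sign, at 0.29, without scaling between arrays.

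*Erbb3*, whose probe at chr10:128006424-128006483 of mm9 (minus strand) is shown because it carries the largest genotype difference of the 3 receptors, ordered the arrays as *Erbb2* did after AOM.
*Erbb3* probe: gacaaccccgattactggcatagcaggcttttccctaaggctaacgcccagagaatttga
Its levels were 0.100 and 0.0652 on the *Pla2g3*+/+ and *Pla2g3*-/- vehicle arrays and 0.0562 and 0.202 on the corresponding AOM arrays. After AOM it was 3.60-fold higher in the pool labeled *Pla2g3*-/- (log2 1.85 ± 0.218), and in that genotype it was 3.10-fold higher than with vehicle (1.63 ± 0.235). With vehicle the genotype difference was -0.62 ± 0.240, and AOM differed from vehicle by -0.83 ± 0.224 in *Pla2g3*+/+. Normexp background correction with quantile normalization brought both differences that passed 2-fold to 0.94 and 0.85, under the threshold.

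**Figure D3:**
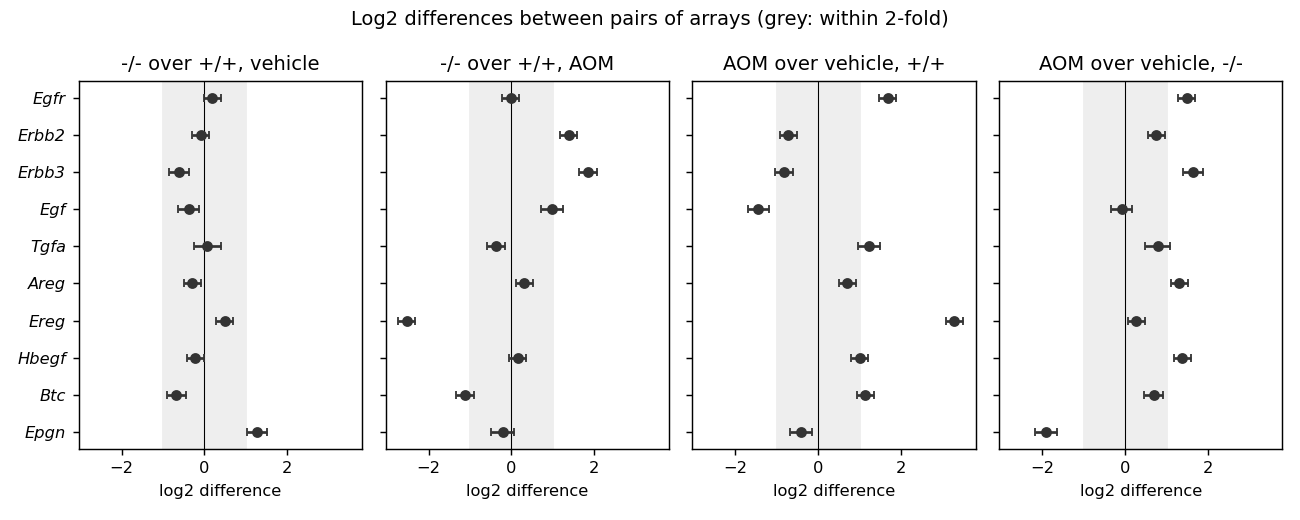
Log2 difference of the 10 members in the 4 comparisons, with bars of 1 SD from the error model of the scanner software and a grey band for differences within 2-fold. With vehicle only *Epgn* lies outside the band, whereas *Ereg* lies farthest out after AOM, at -2.52 between genotypes and 3.28 against vehicle in *Pla2g3*+/+.

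Among the ligands, *Epgn*, *Ereg*, *Areg* and *Btc* lie in this order within 1 stretch of chromosome 5, and their probes (mm9) start at 91464119, 91522553, 91570090 and 91786948, a span of 322.8 kb. The 4 neighbors had different patterns over the arrays.

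*Ereg*, which encodes epiregulin, a ligand of EGFR and ERBB4, had the largest differences of the family. Its level was 0.292 on the *Pla2g3*+/+ vehicle array, 0.410 on the *Pla2g3*-/- vehicle array, 2.84 on the *Pla2g3*+/+ AOM array and 0.494 on the *Pla2g3*-/- AOM array. The *Pla2g3*+/+ AOM array thus stood apart from the other 3. *Ereg* was 9.71-fold higher there than with vehicle (log2 3.28 ± 0.205), a difference at the percentile 98.4 of all genes, and it was 5.75-fold lower in the pool labeled *Pla2g3*-/- after AOM (log2 -2.52 ± 0.204). In the pools labeled *Pla2g3*-/- AOM differed from vehicle by 0.27 ± 0.205. The differences of 2.85 to 4.30 against vehicle and -2.69 to -2.30 between genotypes passed 2-fold under every alternative to the scaling and background, and the difference between the 2 AOM effects was not tested.

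*Areg* encodes amphiregulin, a ligand of EGFR. The probe (chr5:91570090-91570149 of mm9, plus strand) and the 250 bases before the RefSeq gene start (chr5:91139349-91139598 of GRCm38.p6, plus strand) are shown because the gene borders *Ereg* yet differed from it after AOM. In the upstream sequence the capitals mark the letters TATAAA, the core promoter motif called the TATA box (31 to 26 bases before the start), and a TGACGTCA (the cAMP response element, 61 to 54 bases before it).
*Areg* probe: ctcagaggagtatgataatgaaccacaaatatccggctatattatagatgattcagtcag
*Areg* upstream: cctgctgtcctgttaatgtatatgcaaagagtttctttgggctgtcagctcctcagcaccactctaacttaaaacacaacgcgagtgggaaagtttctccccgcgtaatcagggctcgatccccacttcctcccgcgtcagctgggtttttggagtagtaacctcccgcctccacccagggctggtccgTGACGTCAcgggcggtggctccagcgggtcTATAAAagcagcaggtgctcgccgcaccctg
On both strands, TATAAA occurred in 12.4% and TGACGTCA in 1.55% of 32851 windows of the same length before RefSeq gene starts. Of the 7 members with such windows (*Egfr*, *Erbb2*, *Egf*, *Tgfa*, *Areg*, *Btc* and *Epgn*), *Areg* and *Epgn* held TATAAA and *Areg* held TGACGTCA, a motif that was added after the sequence had been seen. The AP-1 letters TGACTCA, searched on both strands, were in 4.46% of all windows and in 0 of the 8 windows of these 7 genes.
The *Areg* levels were 0.802 and 0.653 on the *Pla2g3*+/+ and *Pla2g3*-/- vehicle arrays and 1.30 and 1.61 on the AOM arrays. Both AOM arrays lay above both vehicle arrays. The difference to vehicle was 1.30 ± 0.204 in the pools labeled *Pla2g3*-/-, which passed 2-fold, and 0.69 ± 0.204 in *Pla2g3*+/+, which did not. Between genotypes *Areg* differed by -0.30 ± 0.204 with vehicle and 0.31 ± 0.204 after AOM.

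*Btc*, which encodes betacellulin, a ligand of EGFR and ERBB4, had levels of 0.104, 0.0652, 0.229 and 0.105 on the *Pla2g3*+/+ vehicle, *Pla2g3*-/- vehicle, *Pla2g3*+/+ AOM and *Pla2g3*-/- AOM arrays. As for *Ereg*, the *Pla2g3*+/+ AOM array was the highest. It was 2.19-fold above vehicle (log2 1.13 ± 0.210), and the pool labeled *Pla2g3*-/- was 2.17-fold lower after AOM (-1.12 ± 0.209). With normexp correction and quantile normalization these differences were 0.66 and -0.64 and did not pass 2-fold. The difference to vehicle in the pools labeled *Pla2g3*-/- was 0.69 ± 0.232, and with vehicle the genotypes differed by -0.68 ± 0.233.

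*Epgn*, which encodes epigen, a ligand of EGFR, was the member that passed 2-fold between the vehicle arrays. Its levels were 0.0496 and 0.120 on the *Pla2g3*+/+ and *Pla2g3*-/- vehicle arrays and 0.0370 and 0.0319 on the AOM arrays. The probe was dim and had 1 spot per array, with intensities of 32.0, 77.8, 48.4 and 37.3 in the same order. The lowest intensity well above background lay between 10.7 and 17.1 on the 4 arrays. The *Pla2g3*-/- vehicle array was the highest, 2.41-fold above *Pla2g3*+/+ (log2 1.27 ± 0.246), and the *Pla2g3*-/- AOM array was 3.75-fold below it (-1.91 ± 0.270). With normexp correction and quantile normalization these were 0.65 and -0.83 and did not pass 2-fold. The pancreatic acinar markers moved with *Epgn*, since 11 of 11 with a value were more than 2-fold higher on the *Pla2g3*-/- vehicle array than on the *Pla2g3*+/+ vehicle array and 11 of 11 were lower on the *Pla2g3*-/- AOM array. Their summed level was 0.815, 16.3, 4.59 and 0.287 on the *Pla2g3*+/+ vehicle, *Pla2g3*-/- vehicle, *Pla2g3*+/+ AOM and *Pla2g3*-/- AOM arrays. The third sum was carried by *Pnliprp1* at 4.35, and 6 of the 11 markers were not well above background on that array. Their part in the *Epgn* result was not tested.

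*Hbegf*, on chromosome 18, encodes heparin-binding EGF-like growth factor, a ligand of EGFR and ERBB4. Its levels were 0.831 and 0.711 on the *Pla2g3*+/+ and *Pla2g3*-/- vehicle arrays and 1.66 and 1.85 on the AOM arrays. Both AOM arrays lay above both vehicle arrays, as with *Egfr* and *Areg*. The difference to vehicle was 1.38 ± 0.205 in the pools labeled *Pla2g3*-/- on the log2 scale. In *Pla2g3*+/+ it was 2.001-fold, at the threshold, and it lay under it, at 0.93 on the log2 scale, with normexp correction and quantile normalization. The genotypes differed by -0.22 ± 0.205 with vehicle and 0.15 ± 0.204 after AOM.

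*Tgfa* encodes transforming growth factor alpha, a ligand of EGFR (chromosome 6 of mm9, 86224838 to 86224897). Its levels were 0.0359 ± 0.0048 and 0.0376 ± 0.0073 on the *Pla2g3*+/+ and *Pla2g3*-/- vehicle arrays (SD of 10 spots each), 0.0835 ± 0.0043 on the *Pla2g3*+/+ AOM array (9 spots) and 0.0647 ± 0.0071 on the *Pla2g3*-/- AOM array (10 spots). The AOM arrays were again the higher ones, by 2.32-fold in *Pla2g3*+/+ (log2 1.22 ± 0.263) and by 0.78 ± 0.301 on the log2 scale in the pools labeled *Pla2g3*-/-. With normexp correction and quantile normalization the first was 0.47. The probe was dim, with intensities between 23.2 and 109.3 on the 4 arrays. Genotype differences were 0.07 ± 0.331 with vehicle and -0.37 ± 0.223 after AOM.

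*Egf*, which encodes the founding ligand of the receptor (chromosome 3 of mm9, 129380826 to 129380885, minus strand), was the member that was lower after AOM in *Pla2g3*+/+. Its levels were 0.0813 ± 0.0067 and 0.0624 ± 0.0064 on the *Pla2g3*+/+ and *Pla2g3*-/- vehicle arrays, 0.0298 ± 0.0040 on the *Pla2g3*+/+ AOM array (10 spots each) and 0.0589 ± 0.0028 on the *Pla2g3*-/- AOM array (9 spots). The *Pla2g3*+/+ AOM array was the lowest, 2.73-fold below vehicle (log2 -1.45 ± 0.261). The difference was -0.43 without scaling and -0.49 with normexp correction and quantile normalization, so that it no longer passed 2-fold. The probe was dim, with intensities between 39.0 and 68.8 on the 4 arrays. After AOM the pool labeled *Pla2g3*-/- was 0.98 ± 0.264 higher on the log2 scale, just inside 2-fold, and in this genotype AOM differed from vehicle by -0.08 ± 0.256.

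Other genes of the pathway were taken from lists by role. With vehicle, 0 of the 66 listed genes with a value passed 2-fold between the genotypes, beside only 3.24% of all genes. Of the receptor *Erbb4* and the neuregulins, which are ligands of ERBB3 and ERBB4, 0 were higher and 2 of 4 lower in the pool labeled *Pla2g3*-/- after AOM. That is 50%, beside 28.0% of all genes (12.9% lower). Against vehicle, AOM gave 1 higher and 1 lower of 4 in *Pla2g3*+/+ (50%, beside 37.5% of all genes). It gave 0 higher and 1 lower of 3 in the pools labeled *Pla2g3*-/- (33.3%, beside 24.8%). *Nrg1* had levels of 0.253, 0.272, 5.14 and 0.366 on the *Pla2g3*+/+ vehicle, *Pla2g3*-/- vehicle, *Pla2g3*+/+ AOM and *Pla2g3*-/- AOM arrays. It thus stood out on the same array as *Ereg*, 14.1-fold lower in the pool labeled *Pla2g3*-/- after AOM, whereas *Nrg3* was not well above background on any array and *Nrg4* differed by -1.31 between the AOM arrays.

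Of 10 genes for the release of ligands, 2 were higher and 2 lower between the genotypes after AOM, and 3 were higher and 2 lower between AOM and vehicle in *Pla2g3*+/+. These are 40% and 50% of the list, beside 28.0% and 37.5% of all genes. In the pools labeled *Pla2g3*-/- AOM gave 2 higher and 0 lower of 10 (20%, beside 24.8% of all genes). *Adam8*, a metalloprotease also made by leukocytes, had levels of 0.221, 0.250, 6.39 and 0.685 in the order used for *Nrg1*, and *Rhbdl2*, a rhomboid protease of the cell surface, had 0.720, 0.570, 0.196 and 1.31. *Adam17*, the main sheddase of several EGFR ligands, stayed within 2-fold in all 4 comparisons, with log2 differences between -0.26 and 0.61. Its probe was dim, with levels of 0.046, 0.063, 0.071 and 0.059 in the order used for *Nrg1*. *Adam10*, the sheddase of *Egf* and *Btc* products, was 1.06 higher on the log2 scale after AOM in *Pla2g3*+/+.

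Of 18 feedback inhibitors, 4 were higher and 2 lower in the pool labeled *Pla2g3*-/- after AOM, and 5 of 18 were higher and 2 lower after AOM in *Pla2g3*+/+. These shares, 33.3% and 38.9%, lay near those of all genes, 28.0% and 37.5%. In the pools labeled *Pla2g3*-/-, 6 of 17 with a value were higher after AOM and 0 were lower (35.3%). Of all genes, 24.8% passed 2-fold there, with 9.65% higher and 15.1% lower. *Lrig3* and *Lrig1*, which encode related membrane proteins of which LRIG1 restrains ErbB receptors, were higher by 3.53 and 1.52 on the log2 scale in the pool labeled *Pla2g3*-/- after AOM. *Errfi1*, which encodes an inhibitor that binds the EGFR kinase, was higher by 1.11. *Dusp4*, a MAP kinase phosphatase, was lower by 2.37 between the genotypes after AOM and 3.96 higher than vehicle in *Pla2g3*+/+.

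Of 23 signal transducers, 1 was higher and 1 lower between the genotypes after AOM and 21 stayed within 2-fold, so that 8.7% passed it beside 28.0% of all genes. The genes past it were *Map2k1*, the kinase MEK1, at 1.32, and *Plcg1*, phospholipase C gamma 1, at -1.84. In *Pla2g3*+/+ AOM gave 4 higher and 2 lower (26.1%, beside 37.5% of all genes), and in the pools labeled *Pla2g3*-/- 3 higher and 0 lower (13%, beside 24.8%).

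Of 14 genes that respond to ERK, 9 were lower and 1 (*Fos*) was higher in the pool labeled *Pla2g3*-/- after AOM, with a median log2 difference of -1.44 beside 0.03 over all genes. This is 71.4% of the list past 2-fold, beside 28.0% of all genes. Between AOM and vehicle in *Pla2g3*+/+, 9 were higher and 2 were lower (78.6%, beside 37.5% of all genes), with a median of 1.52 beside -0.17. In the pools labeled *Pla2g3*-/- 1 was higher and 2 were lower (21.4%, beside 24.8% of all genes), with a median of -0.14. The largest genotype differences after AOM were those of *Ier3* (-3.57), *Plaur* (-3.39), *Etv5* (-3.33), *Phlda1* (-2.55), *Fosl1* (-2.31) and *Ccnd1* (-2.17). *Etv5*, a transcription factor of the ETS family, had levels of 2.80 and 3.15 on the *Pla2g3*+/+ and *Pla2g3*-/- vehicle arrays and 10.8 and 1.08 on the AOM arrays, and *Fos* had 1.89, 1.76, 2.39 and 7.05. *Etv5* thus peaked on the *Pla2g3*+/+ AOM array and *Fos* on the *Pla2g3*-/- AOM array. These genes also respond to other signals, and the 2 counts of 9 share the *Pla2g3*+/+ AOM array.

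**Figure D4:**
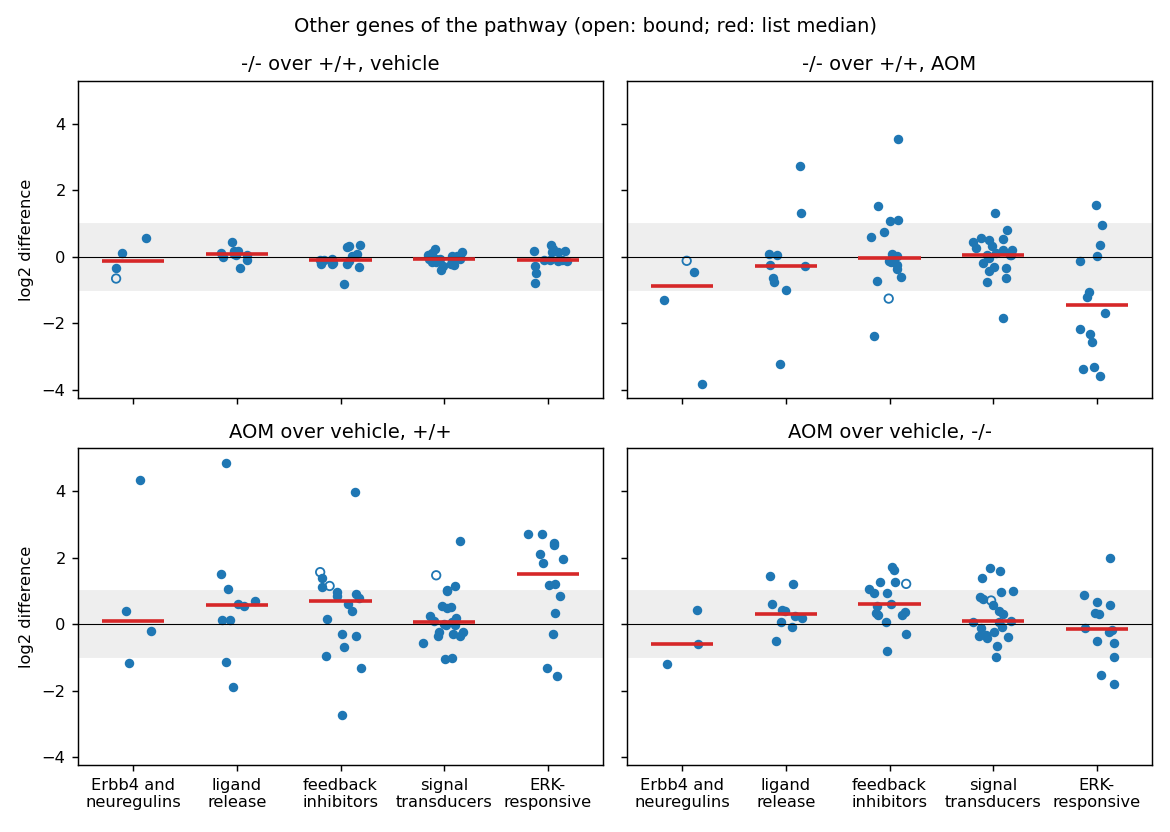
Log2 difference of the other genes of the pathway in the 4 comparisons, by list, 1 point per gene, with open points for bounds, a red line for the median of each list and a grey band for differences within 2-fold. The ERK-responsive genes have a median of -1.44 between the genotypes after AOM and 1.52 between AOM and vehicle in *Pla2g3*+/+. With vehicle no listed gene leaves the band, where only 3.24% of all genes passed 2-fold.

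Markers of the cell types of the colon moved with the differences that involve the AOM arrays, above all the *Pla2g3*+/+ AOM array. Summed over 8 epithelial markers the level was 613 and 640 on the *Pla2g3*+/+ and *Pla2g3*-/- vehicle arrays, 381 on the *Pla2g3*+/+ AOM array and 574 on the *Pla2g3*-/- AOM array. All 8 were well above background on every array. All 8 smooth muscle markers were more than 2-fold lower on the *Pla2g3*+/+ AOM array than on its vehicle array, with sums of 510, 535, 31.0 and 488 in the same order. All 5 markers of differentiated colonocytes were lower there too, with sums of 563, 588, 23.3 and 270. All 10 Wnt targets of colon tumors were higher there, with sums of 7.07, 6.82, 72.9 and 7.63, and each of the 10 was lower in the pool labeled *Pla2g3*-/- after AOM. *Ereg*, *Btc*, *Nrg1* and *Adam8* were highest, and *Erbb2*, *Erbb3* and *Egf* lowest, on this same array. *Egfr* (by its variant 1 probe) and *Hbegf* differed between the AOM arrays by less than the SD of the error model. The second variant 2 probe of *Egfr* differed there by -0.47 ± 0.205 on the log2 scale. The part of tissue composition in the member differences was not tested.

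Immune and squamous markers also differed. Of 6 mast cell markers 5 were higher on the *Pla2g3*+/+ AOM array than with vehicle, with sums of 1.95, 1.67, 27.0 and 1.58, and of 6 macrophage markers with a value 5 were higher, with sums of 9.25, 11.4, 18.3 and 8.49. Of 7 neutrophil markers with a value, 5 were higher on the *Pla2g3*+/+ AOM array than with vehicle (*S100a8* by 196-fold and *S100a9* by 160-fold) and 5 were lower in the pool labeled *Pla2g3*-/- after AOM. The neutrophil sums of 54.9, 54.1, 94.0 and 61.8 are mostly *Csf3r*, which was between 44.4 and 53.8 on all arrays. Of 5 Paneth cell markers, 4 were higher on the *Pla2g3*+/+ AOM array than with vehicle, and all 5 were lower in the pool labeled *Pla2g3*-/- after AOM. The Paneth sums of 141, 120, 92.3 and 6.10 include *Ang4*, which ran the other way against vehicle, at 131, 107, 4.6 and 0.468. All 5 goblet cell markers were lower on the *Pla2g3*+/+ AOM array than with vehicle, with sums of 766, 722, 78.4 and 348. Of 6 fibroblast markers 3 were higher and 1 lower there, with sums of 32.7, 36.6, 91.2 and 71.5, and of 5 glial markers 4 were lower, with sums of 1.64, 1.90, 0.273 and 0.939. The part of these cells in the differences of *Ereg*, *Btc*, *Nrg1* and *Adam8* was not tested. *Ngp* of the neutrophil list and *Cd163* of the macrophage list were not well above background on any array. The 8 squamous markers summed to 5.24, 4.85, 11.6 and 26.2, with *Krt5* at 15.3 on the *Pla2g3*-/- AOM array and at most 0.0561 on the other 3, and *Sprr3* not well above background on any. *Krt15* (0.0485, 0.0396, 5.46 and 3.17) and *Krt14* (0.112, 0.0686, 1.56 and 2.49) were higher on both AOM arrays. Against vehicle, AOM gave 3 higher and 2 lower of 7 squamous markers with a value in *Pla2g3*+/+ (71.4%, beside 37.5% of all genes). In the pools labeled *Pla2g3*-/- it gave 3 higher and 1 lower of 6 (66.7%, beside 24.8%). Between the AOM arrays, 1 of 6 squamous markers with a value (*Krt5*) was more than 2-fold higher in the pool labeled *Pla2g3*-/-, 1 (*Krt4*) was at least 7.33-fold lower and 4 were within 2-fold. *Erbb3* and *Erbb2* were highest on the *Pla2g3*-/- AOM array, and the part of squamous epithelium in the member differences was not tested.

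**Figure D5:**
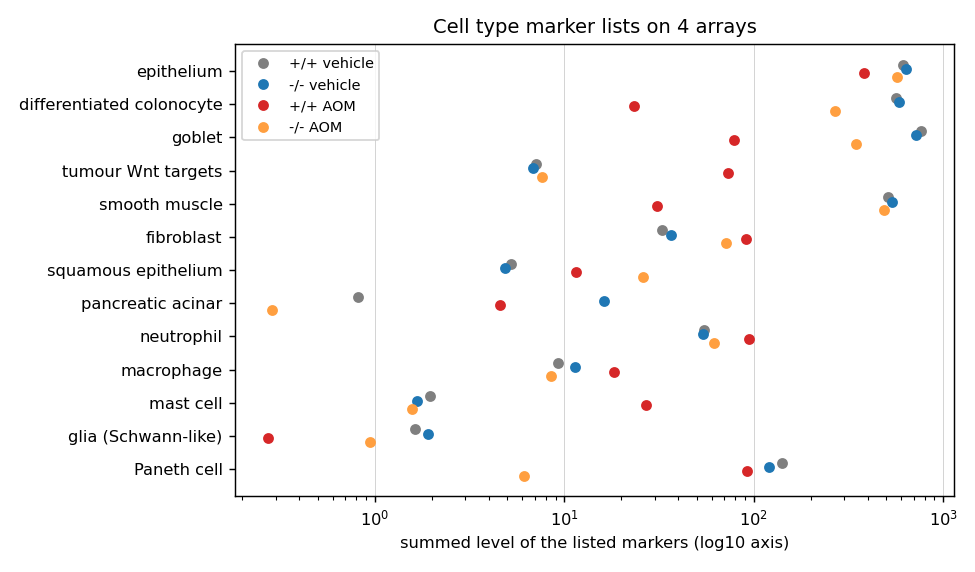
Summed level (log10 axis) of 13 lists of cell type markers on the 4 arrays, 1 point per array. The *Pla2g3*+/+ AOM array stands apart for smooth muscle at 31.0, differentiated colonocytes at 23.3 and tumor Wnt targets at 72.9, and the *Pla2g3*-/- vehicle array is the highest for pancreatic acinar markers at 16.3.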

How the data were processed

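Total RNA of colons was mixed within each group, and 27.7 ng per pool was labeled with Cy3 and hybridized to Whole Mouse Genome arrays (Agilent) on 1 slide. Groups were taken from the sample labels. The authors deposited, for each spot, an intensity made by Feature Extraction 11.5.1.1 with background subtraction, spatial detrending and a surrogate for low signals, and with no scaling from array to array. The deposited value table is a ratio, this intensity over the 75th percentile of its array, and served as an alternative. Its scale was checked against each array.

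Control spots and outlier flags were left out, log2 values of replicate spots were averaged and the 75th percentile over spots other than controls was subtracted. Of 39429 probes, 39423 were used and 31367 matched a RefSeq gene, and the brightest probe stood for each of 22368 genes. A gene well above background on 1 array of a pair was given a bound and on neither array no value. Precision is limited by having 1 array per group, and no test was run. The calculation of differences and bounds was tested on simulated data.

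The members, the lists of pathway genes and markers, and the alternatives were chosen with earlier results of these data known. All members and probes were named. Of each pathway list at most 6 genes past 2-fold were named per comparison, and some genes with larger differences than a named gene were left out. *Nrg3*, *Adam17* and *Fos* were named beside these and were chosen after their values were seen. Probe coordinates are those of the array files (mm9), and upstream sequences are from RefSeq on GRCm38.p6. Alternatives were quantile normalization, no scaling, median scaling, normexp (offset 50) with quantile normalization in limma 3.58.1 (R 4.3.3), 2 filters on dim probes, the mean over probes, the dimmest probe, thresholds of 1.5-fold and 4-fold, and the value table. Python 3.11.15, pandas 2.3.3, numpy 2.4.6 and matplotlib 3.10.9 were used.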

Additional observations from a re-analysis of the deposited data

Results flagged for a closer look

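Among the genes for the release of ligands, *Rhbdl2* drew attention because its AOM effect ran in opposite directions past 2-fold in the 2 genotypes, with log2 differences to vehicle of -1.88 in *Pla2g3*+/+ and 1.21 in the pools labeled *Pla2g3*-/-. *Etv5*, an ERK-responsive gene, did the reverse, at 1.96 in *Pla2g3*+/+ and -1.54 in the pools labeled *Pla2g3*-/-. Neither difference between the genotypes was tested, since each group is 1 array. No family member passed 2-fold in opposite directions in the 2 genotypes.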

How the results depend on the processing

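Of 40 member differences (10 genes in 4 comparisons), 16 passed 2-fold, and 11 of these did not under at least 1 alternative other than the thresholds, whereas 0 of the 16 changed sign. Another 6 passed 2-fold under an alternative only. Without scaling, 0 members were lower in *Pla2g3*+/+ and 8 higher in the pools labeled *Pla2g3*-/- after AOM, beside 1231 of 17172 and 6396 of 16779 genes with a value. The median of all genes then shifted to 0.87 and 0.76 on the log2 scale, and the members newly past 2-fold, *Areg* (1.72) in *Pla2g3*+/+ and *Tgfa* (1.63), *Erbb2* (1.59), *Btc* (1.54) and *Ereg* (1.11) in the pools labeled *Pla2g3*-/-, are to be read relative to it. With normexp correction and quantile normalization, 0 members were higher between the genotypes with vehicle, 1 was higher and 1 lower after AOM, 2 were higher and 0 lower after AOM in *Pla2g3*+/+, and 0 were lower in the pools labeled *Pla2g3*-/-. The counts over all genes were then 111 of 16481, 1515 and 1297 of 17233, 1782 and 1683 of 17382, and 860 of 16744, in the same order. At 1.5-fold, 2 were lower with vehicle, 3 were lower after AOM in *Pla2g3*+/+ and 7 higher in the pools labeled *Pla2g3*-/-. The counts over all genes were then 570 of 16391, 6108 of 17277 and 3413 of 16514, against 216, 3871 and 1593 at 2-fold. At 4-fold, 0 were higher with vehicle, 0 higher and 1 lower between the genotypes after AOM, 1 higher and 0 lower after AOM in *Pla2g3*+/+, and 0 higher and 0 lower in the pools labeled *Pla2g3*-/-. Over all genes the 4-fold counts were 121 higher of 16391 with vehicle, and 972 higher and 855 lower of 17194 between the genotypes after AOM. They were 859 higher and 1250 lower of 17277 in *Pla2g3*+/+, and 229 higher and 509 lower of 16514 in the pools labeled *Pla2g3*-/-. With median scaling *Egf* passed 2-fold between the genotypes after AOM, at 1.03. With the dimmest probe the AOM differences of *Egfr* were 0.32 and 0.14. The cause of these changes was not tested. *Ereg* in *Pla2g3*+/+ and between the AOM arrays, *Erbb2* between the AOM arrays, and *Areg* and *Hbegf* in the pools labeled *Pla2g3*-/- passed 2-fold under every alternative to the scaling, background, filter, probe and source. No paired analysis was possible because each group is 1 array of pooled RNA. No replicate could be left out for the same reason.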
